A study of Rattus norvegicus with 58 samples.

Results

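Livers of BN (Brown Norway) rats were compared directly with livers of F344 (Fischer) rats. The comparison rests on 4 of the 58 arrays of the series, 2 of BN and 2 of F344, chosen by their strain labels. The other arrays came from the inbred strains ACI, BUF, M520 and WKY, with 2 arrays each, and from 46 heterogeneous stock (HS) rats, outbred animals descended from inbred strains, split into 23 glucose-intolerant and 23 normal ones. All animals were untreated males of 17 weeks, housed 2 per cage with free access to food and then fasted overnight before the liver was frozen. The RNA passed through a two-cycle amplification before it was hybridised to Affymetrix rat arrays. Nothing in the labels ties the 2 arrays of each strain to different litters, cages or days, and a p-value here covers the spread seen between them and no more.

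Values are log2 levels, so a difference of 1 is a 2-fold difference, and every difference is BN minus F344. The error variance was estimated from all 12 inbred arrays with 6 strain means (limma, 6 residual degrees of freedom), and a gene is called higher or lower where the p-value adjusted over 31042 probe sets is under 0.05. Array medians lay between 5.33 and 5.39, and no pair of arrays held identical values. The BN arrays correlated at 0.9936 with each other and the F344 arrays at 0.9923, while correlations between a BN and a F344 array ran from 0.9821 to 0.9854 across probe sets. The median standard error of a difference was 0.16, the median 95% interval reached 0.34 to either side, and the smallest called difference was 0.46. A difference in RNA level and a difference in how well a strain's sequence binds the probes cannot be told apart with these values, and sequence variants under the probes were not analysed here. In a piece of liver, fewer cells of a type and less RNA per cell cannot be told apart either. Of 9 hepatocyte markers, including Alb, Ttr and Apoa1, none was called, and their mean log2 level was 14.04 and 14.04 on the BN arrays and 14.03 and 13.94 on the F344 arrays.

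The strains were paired as the extremes of hepatic lipogenesis, the synthesis of fatty acids from citrate carried out of the mitochondria. ATP citrate lyase (Acly), acetyl-CoA carboxylase (Acaca) and fatty acid synthase (Fasn) make palmitate in sequence, and elongases and desaturases such as Scd then lengthen and desaturate the product. The transcription factor SREBP-1, the product of Srebf1, drives these genes after feeding, and fasting lowers most of them. Inbred rat strains also differ at their histocompatibility complex and in many drug-metabolising and steroid-metabolising enzymes.

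Among 14217 genes, each read by its brightest probe set, 548 (3.85%) were called, 314 (2.21%) higher and 234 (1.65%) lower in BN. These shares over all genes are the background for every list count below. Over all probe sets the count was 1023 of 31042 (3.3%), with 544 higher and 479 lower, and 283 of the called probe sets have no gene symbol. The median size of a called difference was 0.966, and over all genes 7472 of 14217 differences were positive. Of the called genes, 257 differed by at least 1 on the log2 scale, 59 by at least 2, 17 by at least 3 and 9 by at least 4. The extremes spanned from Lox, 6.16 higher in BN, to Echdc2, which fell by 6.49. Leaving out BN array 1, BN array 2, F344 array 1 or F344 array 2 left 454, 683, 475 or 634 called probe sets and 244, 372, 241 or 331 called genes.

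**Figure D1:**
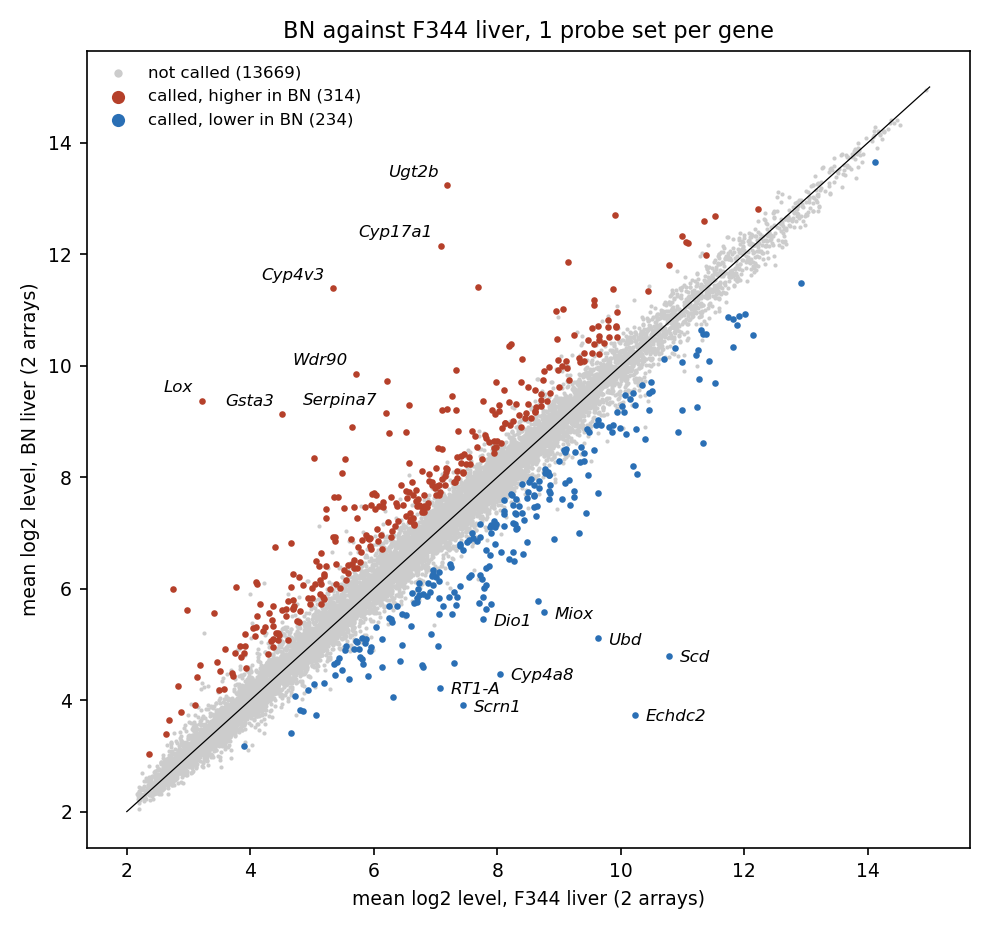
Mean log2 level of each of 14217 genes in BN liver (vertical axis) against F344 liver (horizontal axis), 2 arrays each, with the line of equal levels. Red points are the 314 genes called higher and blue points the 234 called lower in BN, and Lox, Cyp4v3 and Ugt2b lie farthest above the line, Echdc2 and Scd farthest below.

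The 12 genes highest in BN against F344 were led by Lox, Cyp4v3, Ugt2b and Cyp17a1. Lox, the lysyl oxidase that cross-links collagen and elastin, had levels of 9.31 and 9.43 on the BN arrays, against 3.26 and 3.16 on the F344 arrays. Both BN arrays lay above all 46 HS arrays, and both F344 arrays sat near the bottom of the HS range of 2.96 to 8.05. The difference was 6.16 ± 0.28 (SE; adjusted p = 2.69e-07), and a second probe set gave 5.19. The F344 levels lay below the median of every array and background was not measured here, so no fold is given. Among the other strains WKY was the nearest to BN, with a mean of 7.79.

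Cyp4v3, a cytochrome P450 that hydroxylates fatty acids, read 11.42 and 11.37 in BN, against 5.35 and 5.32 in F344. Here F344 was the strain apart. The other 8 inbred arrays lay between 11.09 and 11.44 and the 46 HS arrays between 10.86 and 11.61, so no other array came near the F344 level. The difference was 6.06 ± 0.12 (SE; adjusted p = 1.51e-10). The second probe set was also called, at 2.58, a much smaller difference.

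Ugt2b, a glucuronosyltransferase of a family with close copies in tandem, had levels of 13.21 and 13.26 in BN, against 8.80 and 5.57 in F344. The 2 F344 arrays disagreed by 3.23 log2 units, the widest gap within a strain among these 24 genes. The mean difference of 6.05 ± 0.69 (SE; adjusted p = 0.000443) therefore averages unlike arrays, and which copy the probe set reads is uncertain. BUF and M520 were at 13.39 and 13.24, while ACI and WKY were at 5.59 and 5.29.

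Cyp17a1, the enzyme that hydroxylates and cleaves pregnane steroids on the way to androgens, had levels of 12.24 and 12.07 in BN, against 7.38 and 6.80 in F344. The BN arrays stood above every other array, since the other inbred arrays reached 7.13 and the HS arrays 8.36. The difference was 5.07 ± 0.40 (SE; adjusted p = 2.68e-05), while F344 differed from the mean of the strains ACI, BUF, M520 and WKY by 1.06 (adjusted p = 0.181). Wdr90, a WD-repeat protein of centrioles, had 9.77 and 9.95 in BN, against 5.76 and 5.65 in F344, with 5.63 to 6.17 on the other inbred arrays and up to 9.44 on the HS arrays.

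The remaining genes of this group were Gsta3 (difference 4.62), Pxmp4 (3.73), Ildr2 (3.51), Ifgga2l1 (3.30), Ltb (3.27), RGD1309362 (3.26) and Serpina7 (2.95). Gsta3, a glutathione transferase with near-identical relatives, had levels of 9.40 and 8.86 in BN, against 3.89 and 5.14 in F344. Pxmp4, a peroxisomal membrane protein, had 11.55 and 11.29 in BN, against 7.53 and 7.84 in F344, and BUF, at 10.93, was the sole other strain with a high level. Ildr2, known in mice as a diabetes modifier gene that acts in liver lipid handling, had 9.63 and 9.82 in BN, against 6.38 and 6.04 in F344. Both BN arrays were above the HS maximum of 7.58 for Ildr2, and 2 of its 3 other probe sets were called as well, the third giving 0.07.

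Ltb, the lymphotoxin beta subunit that sits on the surface of lymphocytes, had 8.93 and 8.88 in BN, against 5.50 and 5.78 in F344. Of 14 T-cell, B-cell and NK-cell markers 0 were called, but 11 of them, among them Cd3e and Ms4a1, were under the median level of every array, so lymphocyte content was not resolved. Serpina7, the thyroxine-binding globulin of plasma, had 9.25 and 9.03 in BN, against 6.09 and 6.29 in F344. Its call was lost when any one of the BN or F344 arrays was left out, with an adjusted p of up to 0.106, whereas the other 11 genes of this group kept theirs in each of the 12 fits that left out 1 array.

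The 12 lowest genes were led by Echdc2 and Scd. Echdc2, a mitochondrial enoyl-CoA hydratase-like protein, had levels of 3.66 and 3.81 in BN, against 10.23 and 10.23 in F344. It was the mirror image of Cyp4v3, with BN as the strain apart. The other inbred arrays ran from 9.79 to 10.34 and the HS arrays from 9.97 to 10.52. The difference was -6.49 ± 0.13 (SE; adjusted p = 1.51e-10).

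Scd, the stearoyl-CoA desaturase that makes monounsaturated fatty acids, had levels of 4.79 and 4.80 in BN, against 11.10 and 10.47 in F344. Both BN arrays were under the lowest of the 46 HS arrays (7.14) and under the lowest of the other inbred arrays (7.38). Both F344 arrays were near the HS median of 10.82, and F344 had the highest mean of the 6 strains. The difference was -5.99 ± 0.46 (SE; 95% interval -6.99 to -4.99; adjusted p = 1.83e-05). The BN levels lay below the median of every array, so here too no fold is given.

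The other 10 genes of this group had differences from -4.51 to -2.31. Ubd (FAT10, a ubiquitin-like modifier induced by inflammatory cytokines) had 5.09 and 5.13 in BN, against 9.81 and 9.44 in F344, and ACI shared the high level at 10.41. Cyp4a8, a fatty acid hydroxylase, had 4.28 and 4.66 in BN, against 7.92 and 8.16 in F344, and its second probe set gave -2.58. Miox, which opens the ring of myo-inositol, had 5.92 and 5.23 in BN, against 8.93 and 8.60 in F344.

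Dio1, the deiodinase that converts thyroxine to the active hormone, had 5.50 and 5.40 in BN, against 7.80 and 7.74 in F344. With Serpina7 this made a carrier and a converting enzyme of thyroid hormone move in opposite directions, Serpina7 higher and Dio1 lower in BN. Both BN arrays lay under the HS minimum of 5.89 for Dio1. Scrn1 (-3.54), Spin2b (-2.87), RT1-A (-2.86), the liver-intestine cadherin Cdh17 (-2.73), AA926063 (-2.64) and Sdr42e1 (-2.31) completed the group. For Scrn1, a secernin, BN had 3.70 and 4.11, against 7.67 and 7.22 in F344, and the other inbred arrays, at 3.92 to 5.42, put F344 apart. All 12 genes kept the call in each of the 12 fits that left out 1 array.

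**Figure D2:**
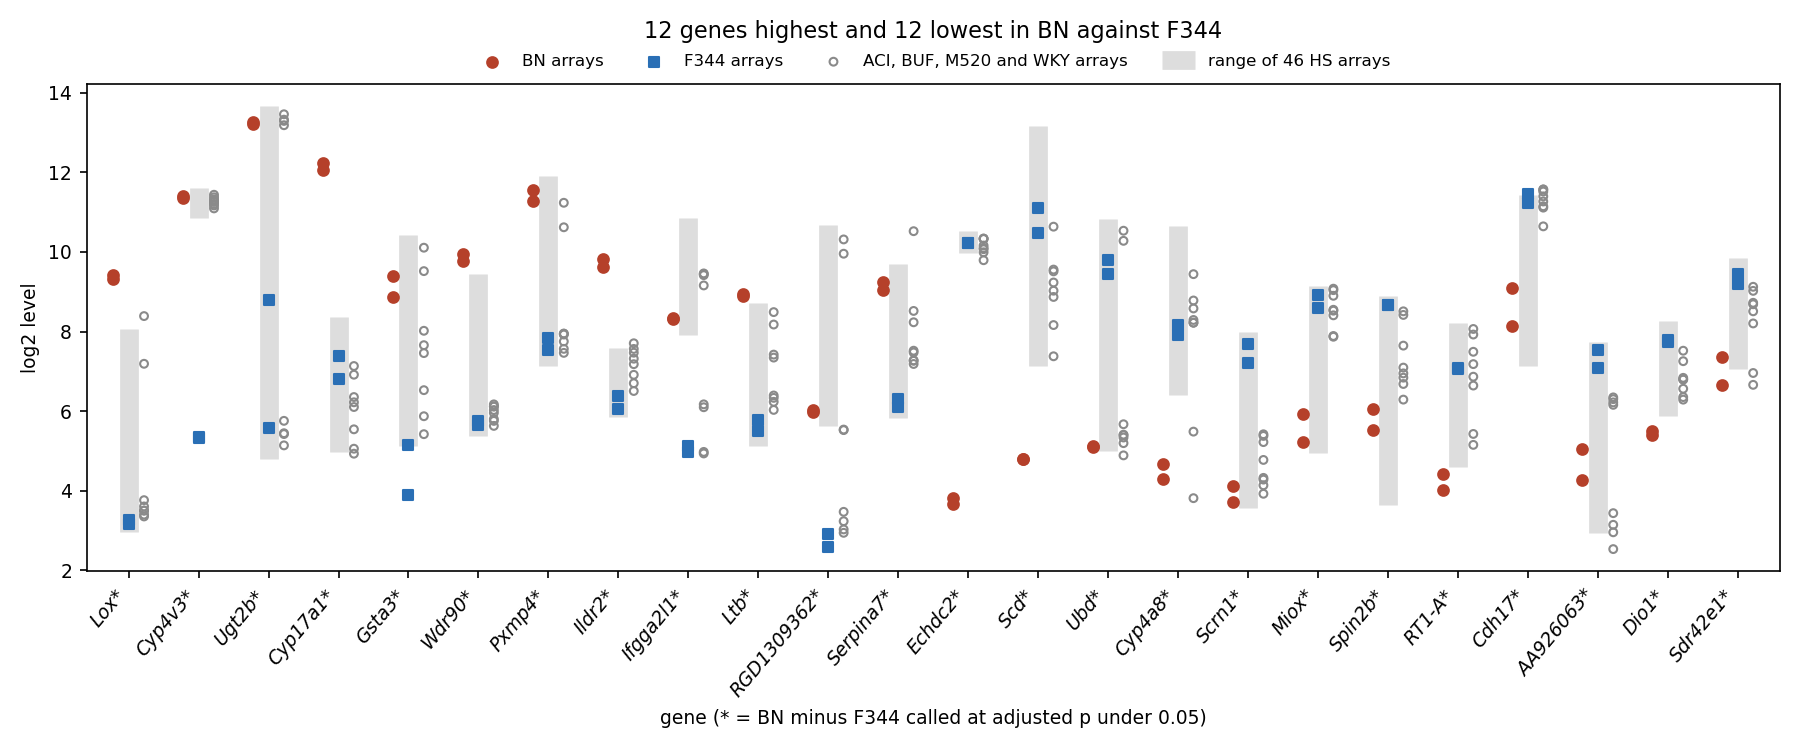
Log2 levels of the 12 genes highest (left) and the 12 lowest (right) in BN against F344, with BN arrays as red circles, F344 arrays as blue squares, the other 8 inbred arrays as open circles and the range of 46 HS arrays as a grey bar. BN lies outside all other arrays for Lox, Cyp17a1, Wdr90, Ildr2, Ltb, Echdc2, Scd, RT1-A and Dio1, and F344 for Cyp4v3 and RGD1309362.

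Of the 16 fatty acid synthesis genes listed, all of them measured, 5 were called lower (Scd, Fads1, Acaca, Fads2 and Slc25a1) and 1 higher (Scd2) in BN, with a median difference of -0.768 against 0.0129 over all genes. Both BN arrays lay below both F344 arrays for 11 of the 16, where 22.6% of all genes had that order. Because the strains were paired as extremes of lipogenesis, these values describe the pair and are no independent support for that label. Acaca, which makes malonyl-CoA and sets the pace of the pathway, had 7.14 and 7.17 in BN, against 8.46 and 8.11 in F344, a difference of -1.13 ± 0.20 (SE; adjusted p = 0.00759). Its second probe set gave -0.04 and was not called. Fads1, the delta-5 desaturase of polyunsaturated fatty acids, had 10.45 and 10.21 in BN, against 12.20 and 11.44 in F344, a difference of -1.49 ± 0.27 (adjusted p = 0.0110). Fads2, the delta-6 desaturase, had 9.64 and 9.46 in BN, against 10.78 and 10.22 in F344 (-0.95, adjusted p = 0.0269). Slc25a1, the mitochondrial citrate exporter, had 9.68 and 9.63 in BN, against 10.41 and 10.28 in F344 (-0.69, adjusted p = 0.0295).

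Fasn, Acly and Thrsp did not pass the test with their brightest probe sets. Fasn had 7.49 and 7.37 in BN, against 9.34 and 8.59 in F344, a difference of -1.54 ± 0.48 (SE; adjusted p = 0.129), while its second probe set was called at -2.23. Acly had 8.97 and 8.78 in BN, against 10.32 and 9.73 in F344 (-1.15, adjusted p = 0.114). Thrsp, the thyroid-hormone-responsive protein that promotes lipogenesis, had 8.05 and 8.52 in BN, against 9.84 and 9.19 in F344 (-1.23, adjusted p = 0.0821). In none of these 3 genes did the arrays of the strains overlap, but the 2 F344 arrays were 0.76, 0.59 and 0.65 apart. Of the elongases, Elovl5 (0.50), Elovl6 (0.12) and Elovl2 (1.10) had positive differences and Elovl3 (-0.02) a negative one, and none was called.

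Scd2, a second desaturase, went the other way from Scd, with 6.39 and 6.12 in BN, against 5.27 and 5.12 in F344, a difference of 1.06 ± 0.16 (SE; adjusted p = 0.00377). F344 was the low strain for Scd2, at -0.86 against the mean of ACI, BUF, M520 and WKY (adjusted p = 0.00590), and BN differed from that mean by 0.21 (adjusted p = 0.502). In the gene order of the GRCr8 annotation Scd and Scd2 are direct neighbours among the genes measured, and Bloc1s2 and Wnt8b on either side differed by 0.01 and -0.02. The 3 other probe sets of Scd2 gave 0.04 to 0.28 and were not called, and the call was lost without BN array 1 (adjusted p = 0.0508).

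Except for Scd, these calls were lost in some fits that left out 1 array, which also lowers precision. The list median, -0.768 with all arrays, was -0.821 without BN array 1 and -0.715 without BN array 2. It was -0.646 without F344 array 1 and -0.709 without F344 array 2. The number of the list called lower was 5 in the main fit, 6 with the 4 BN and F344 arrays alone and 2 with all 58 arrays in the fit. It fell when any 1 of the 4 arrays or an ACI array was left out, and rose when either WKY array was. Acaca lost its call without BN array 1 or F344 array 1 (adjusted p up to 0.0826), Fads1 without BN array 1, BN array 2 or F344 array 1 (up to 0.101), Fads2 without either BN array, F344 array 1 or an ACI array (up to 0.210), and Slc25a1 without any of the 4 arrays or an ACI array (up to 0.183). F344 array 1 was the higher of its pair for 12 of the 16 genes, with a median gap of 0.50, where 6090 of 14217 genes had that order and the median gap was -0.04.

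**Figure D3:**
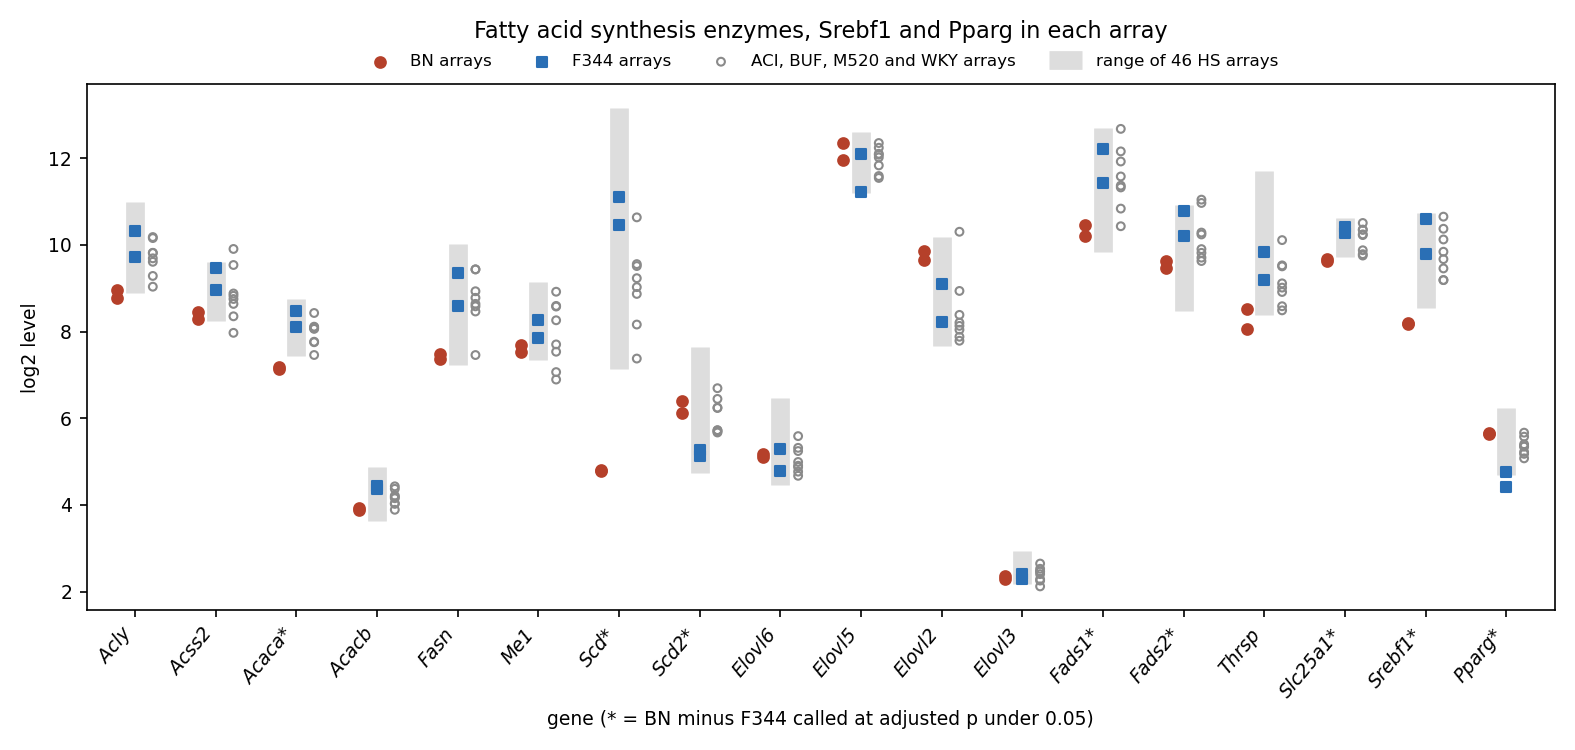
Log2 levels of the 16 fatty acid synthesis genes, Srebf1 and Pparg on each array (BN red circles, F344 blue squares, other 8 inbred arrays open circles, grey bar the range of 46 HS arrays); an asterisk marks a called difference. BN lies below F344 for Scd by 5.99 and for Srebf1 by 2.0, and above it for Scd2 and Pparg by 1.06 each.

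Among 13 lipogenic regulators, 1 was lower and 1 higher in BN. Srebf1 had levels of 8.19 and 8.20 in BN, against 10.61 and 9.79 in F344, a difference of -2.0 ± 0.40 (SE; adjusted p = 0.0164). Both BN arrays lay below the HS minimum of 8.55, and F344 differed from ACI, BUF, M520 and WKY by 0.39 (adjusted p = 0.752). A second Srebf1 probe set gave -1.12 and was not called, and the call was lost without either BN array or F344 array 1 (adjusted p up to 0.147).

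Pparg, the nuclear receptor that promotes fat storage, was higher in BN, with 5.66 and 5.63, against 4.77 and 4.41 in F344 (1.06 ± 0.17, adjusted p = 0.00437), and kept the call without any 1 array. F344 was the low strain, at -0.77 against the mean of the strains outside the pair (adjusted p = 0.0133), and BN differed from that mean by 0.29. The F344 levels of Pparg lay below the median of every array. No regulator was called higher with all 58 arrays in the fit or with no variance moderation. With quantile normalisation, or with the BN and F344 arrays alone, 1 was. Mlxipl, the glucose-sensing factor ChREBP, differed by -0.35 (adjusted p = 0.309), and Nr1h3, the oxysterol receptor LXR alpha, by -0.50 (adjusted p = 0.177). Insig1 (0.22), Insig2 (0.31) and Scap (0.27), which hold or escort the SREBP precursors, were not called.

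Promoter sequences of Scd, Srebf1 and Fads1, the 3 genes of this pathway with the largest called differences and an entry in the RefSeq promoter table, are printed beside their RNA levels. They are from GRCr8, an assembly of a BN rat, and run 5′ to 3′ on the gene's strand from 250 bases before the gene's start to 50 after it. Capitals mark a CCAAT box, read as CCAAT or its reverse complement ATTGG.
Scd, chr1:253231682-253231981, minus strand: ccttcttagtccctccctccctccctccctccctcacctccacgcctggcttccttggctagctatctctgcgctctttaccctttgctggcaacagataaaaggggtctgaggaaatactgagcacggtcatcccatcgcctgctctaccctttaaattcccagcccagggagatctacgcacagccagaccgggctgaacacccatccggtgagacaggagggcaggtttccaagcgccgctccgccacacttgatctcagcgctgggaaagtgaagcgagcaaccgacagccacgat
Srebf1, chr10:45529115-45529414, minus strand: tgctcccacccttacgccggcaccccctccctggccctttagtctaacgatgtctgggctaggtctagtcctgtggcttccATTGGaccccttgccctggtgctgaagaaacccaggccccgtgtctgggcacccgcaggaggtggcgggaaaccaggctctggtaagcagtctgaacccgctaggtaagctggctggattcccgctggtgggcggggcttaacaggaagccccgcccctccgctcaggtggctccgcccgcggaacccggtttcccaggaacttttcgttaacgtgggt
Fads1, chr1:216252442-216252741, plus strand: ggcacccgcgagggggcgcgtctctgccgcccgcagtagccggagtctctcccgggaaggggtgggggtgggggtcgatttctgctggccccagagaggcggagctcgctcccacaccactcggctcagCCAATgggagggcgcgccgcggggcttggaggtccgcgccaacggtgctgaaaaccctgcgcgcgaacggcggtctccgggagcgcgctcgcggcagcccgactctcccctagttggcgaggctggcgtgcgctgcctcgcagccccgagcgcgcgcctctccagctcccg
The Scd window held none of the 3 motifs searched on both strands, which were a sterol regulatory element (TCACNCCAC), an E-box (CACGTG) and the CCAAT box. Srebf1 held a CCAAT box at -169 and Fads1 one at -121 from the start. Of 33469 promoter windows of the same length, 1.12% held the sterol element, 6.42% the E-box and 37.5% the CCAAT box. Among the 13 fatty acid synthesis genes with a window, 0 held the sterol element, 2 the E-box and 9 the CCAAT box, and among the 15 cholesterol genes with a window, 0, 1 and 12. These counts describe letters in the windows and say nothing of factor binding, and the F344 sequence was not analysed here.

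Triglyceride assembly and droplet proteins showed no called member among 16, with a median of -0.225. The smallest adjusted p belonged to Agpat2, which acylates lysophosphatidate, at 0.0527, with 9.70 and 9.76 in BN, against 10.26 and 10.31 in F344. Dgat2, which adds the last acyl chain, differed by -0.38 and Plin2, the main droplet coat protein, by -0.37. Lpin1, the phosphatidate phosphatase that is also a coactivator of fat oxidation, was high in both strains of the pair, with 10.77 and 11.38 in BN and 9.91 and 9.95 in F344, while the other inbred arrays ran from 7.40 to 9.26. Its difference of 1.14 was not called (adjusted p = 0.142). Against the mean of ACI, BUF, M520 and WKY, Lpin1 was 2.93 higher in BN (adjusted p = 0.000134) and 1.79 higher in F344 (adjusted p = 0.00936), contrasts that share their 8 arrays on the other side.

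The lists were chosen with earlier results of these data known, and the source of the label as extremes is not stated. The strain order therefore describes the pair and does not test that label. BN had the lowest mean of the 6 strains for 9 of the 16 fatty acid synthesis genes, and F344 the highest for 4, where 1991 and 1542 of all 14217 genes did. Both held for 4 genes, where 309 of all genes (2.17%) had BN lowest and F344 highest. Set against ACI, BUF, M520 and WKY, BN differed for Scd by -4.25 (adjusted p = 4.17e-05) and for Srebf1 by -1.62 (adjusted p = 0.0122), and F344 by 1.74 (adjusted p = 0.0382) and 0.39.

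Cholesterol synthesis and uptake genes numbered 19 of the 24 listed, with 2 called lower and 0 higher. Dhcr7, which makes cholesterol in the last reductase step, had 8.99 and 8.56 in BN, against 10.02 and 10.15 in F344 (-1.31 ± 0.24, adjusted p = 0.0106). Sc5d, the desaturase just before it, had 10.56 and 10.58 in BN, against 11.26 and 11.50 in F344 (-0.81 ± 0.15, adjusted p = 0.00925). The list median was -0.43, 18 of the 19 differences were negative, and BN had the lowest mean of the 6 strains for 12, where 1991 of all 14217 genes did. Dhcr7 lost its call without BN array 2 or either F344 array, and Sc5d without either BN array or F344 array 2 (adjusted p up to 0.0907 and 0.0825).

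In glycolysis, Pklr, the liver pyruvate kinase and a textbook target of ChREBP, was the 1 called member of 13, with 7.82 and 7.49 in BN, against 8.81 and 8.39 in F344 (-0.95 ± 0.22, adjusted p = 0.0360), and its second probe set was called at -1.27. The Pklr call was lost without either BN array, F344 array 1 or an ACI array (adjusted p up to 0.244). Gluconeogenesis had 0 called of 9, and Pck1, a rate-controlling enzyme of that pathway, read 13.82 and 13.73 in BN, against 13.53 and 13.60 in F344. Insulin signalling (0 of 13), NADPH supply (0 of 7), fatty acid uptake and lipolysis (0 of 16) and Ppara with fat oxidation (0 of 21) also held no called gene. With the 4 BN and F344 arrays alone, 4 of the 21 fat oxidation genes and 1 of the 16 uptake genes were called higher and 0 lower. With all 58 arrays in the fit, neither list held a called gene. Cpt1a, the gate of mitochondrial fat oxidation, differed by 0.40 (95% interval -0.06 to 0.86). Cd36, a fatty acid translocase, was discordant within F344, with 6.22 and 6.30 in BN, against 7.73 and 5.83 in F344. Apoa4, an apolipoprotein of triglyceride-rich particles, was the 1 called of 13 apolipoproteins, at 10.17 and 10.93 in BN, against 12.30 and 11.98 in F344 (-1.59, adjusted p = 0.0156), and lost the call without BN array 1 or F344 array 1 (adjusted p up to 0.165).

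Of the genes for bile acids, drug-metabolising P450 enzymes and conjugating enzymes, 11.8%, 8.33% and 11.1% were called, against 3.85% of all genes. Cyp7b1, the oxysterol hydroxylase of the alternative bile acid route, had 5.53 and 5.70 in BN, against 2.79 and 3.18 in F344 (2.63 ± 0.23, adjusted p = 6.22e-05). Its F344 levels lay below the median of every array, and background was not measured here. Cyp7a1, the rate-limiting enzyme of the classical route, had 9.11 and 8.70 in BN, against 9.96 and 10.83 in F344, a difference of -1.49 with an interval from -3.23 to 0.25. Nr1h4, the bile acid receptor FXR, differed by -0.59 (adjusted p = 0.0418), a call lost without any of the 4 arrays or an array of ACI or M520 (adjusted p up to 0.229). Of 17 bile acid genes, 1 was higher and 1 lower.

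Of 24 P450 genes of drug and steroid metabolism, Cyp17a1 was the 1 called higher and Cyp4a8 the 1 called lower, with a list median of 0.0457. Among 27 conjugating enzymes, Gsta3 and Sult2a6 were higher and Gstk1 lower. Sult2a6, a hydroxysteroid sulfotransferase with close copies, had a mean of 11.17 in BN, against 9.57 in F344 (1.60, adjusted p = 0.0160). Gstk1, a glutathione transferase of mitochondria and peroxisomes, had 10.81 and 10.96 in BN, against 11.87 and 11.95 in F344 (-1.02, adjusted p = 0.00499). The Sult2a6 call was lost without either BN array or F344 array 2, and the Gstk1 call without BN array 1 (adjusted p up to 0.121 and 0.0577).

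Adh4, an alcohol dehydrogenase that also oxidises retinol, was the 1 called of 13 alcohol and aldehyde dehydrogenases. It had 8.90 and 9.51 in BN, against 7.36 and 7.31 in F344 (1.87 ± 0.21, adjusted p = 0.000422). Of 19 NRF2 targets, the antioxidant genes switched on by that factor, 1 was called, Srxn1 at 0.66 (adjusted p = 0.0485), and that call was lost without any of the 4 arrays or an array of ACI or M520.

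Of 26 histocompatibility and antigen presentation genes measured, 8 were called lower and 0 higher in BN, where 1.65% and 2.21% of all genes were. The list median was -0.48, and both BN arrays lay below both F344 arrays for 18, an order held by 22.6% of all genes. RT1-A, a class I molecule, had 4.01 and 4.43 in BN, against 7.09 and 7.06 in F344 (-2.86 ± 0.17, adjusted p = 3.43e-06). The probe set may read other class I copies, and alleles of these genes differ between strains. The immunoproteasome subunit Psmb8 had 8.01 and 8.12 in BN, against 10.28 and 10.25 in F344 (-2.21 ± 0.13, adjusted p = 3.16e-06), and its partner Psmb9 had 8.44 and 8.44 in BN, against 9.43 and 9.38 in F344. Both BN arrays lay below the HS minimum of 8.85 for Psmb8.

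Tap2, part of the pump that carries peptides into the endoplasmic reticulum, had 5.53 and 5.87 in BN, against 7.29 and 7.36 in F344 (-1.63, adjusted p = 0.00627). Tapbp, which holds class I molecules at that pump, differed by -0.77. The class II chains RT1-Ba and RT1-Bb differed by -1.08 and -0.72. In the GRCr8 gene order RT1-Ba, RT1-Bb, Tap2 and Psmb8 are 4 called genes in a row, the longest such run, chosen for mention after the values were seen. Of 547 called genes with a place in that order, 67 (12.2%) had a called neighbour, against 7.51% of all 14161 genes placed. The list held 5 to 6 lower genes when any one BN or F344 array was left out, Ubd, RT1-A and Psmb8 among them, and Tap2 lost its call without BN array 1 (adjusted p = 0.0739).

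Of 29 type I interferon response genes, 5 were lower and 0 higher in BN, where 1.65% and 2.21% of all genes were. The list median was -0.429, with 24 negative differences. Oas1a, a sensor of double-stranded RNA with close copies, had 5.39 and 6.04 in BN, against 7.39 and 8.41 in F344 (-2.18 ± 0.37, adjusted p = 0.00717). Igtp, an interferon-inducible GTPase, had 6.76 and 7.04 in BN, against 8.98 and 8.86 in F344 (-2.02 ± 0.19, adjusted p = 8.28e-05). Ifi27 had a mean of 11.48 in BN, against 12.92 in F344 (-1.44 ± 0.14, adjusted p = 0.000124), and Bst2 (tetherin) differed by -1.49 and Ifi44 by -0.62.

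For Oas1a, Igtp and Ifi27 both BN arrays were below all 46 HS arrays, and F344 differed from the strains outside the pair by 0.25, -0.05 and 0.07, none called. Without BN array 1 or F344 array 2 the list held 2 lower genes, without F344 array 1 it held 3, and without BN array 2 it held 6 lower and 1 higher. Oas1a lost its call without BN array 1 or F344 array 2 (adjusted p up to 0.0854), Bst2 without any of the 4 arrays or an ACI array (up to 0.234), and Igtp and Ifi27 kept theirs in all 12 fits that left out 1 array.

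Of 17 glucocorticoid targets, 6 were called higher and 0 lower in BN, with a median of 0.804, where 2.21% of all genes were called higher. Igfbp1, an IGF-binding protein induced by fasting and glucocorticoids, had 12.44 and 11.30 in BN, against 8.47 and 9.82 in F344 (2.72 ± 0.52, adjusted p = 0.0130). Mt2A, a metallothionein with a close copy, had 12.44 and 12.97 in BN, against 9.43 and 10.38 in F344 (2.80 ± 0.61, adjusted p = 0.0280), and Mt1 had 8.24 and 7.46, against 5.95 and 6.95.

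Gadd45b, a stress-response gene, had 9.60 and 7.98 in BN, against 5.63 and 6.88 in F344 (2.54, adjusted p = 0.0148). Tat, the tyrosine aminotransferase long used as a glucocorticoid reporter, had 11.25 and 10.91 in BN, against 9.38 and 9.74 in F344 (1.52 ± 0.29, adjusted p = 0.0123). Lcn2, also an acute phase protein, was at a low level in all 4 arrays, with 4.56 and 4.69 in BN, against 3.18 and 3.20 in F344. Fkbp5, a chaperone of the receptor, had 8.64 and 9.01 in BN, against 7.20 and 8.20 in F344, the other inbred arrays reached 7.41, and its difference of 1.13 was not called (adjusted p = 0.0979).

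The glucocorticoid calls were lost without BN array 1 or F344 array 1. The list median, 0.804 with all arrays, was 0.873 without BN array 1 and 0.693 without F344 array 1. It was 1.03 without BN array 2 and 0.916 without F344 array 2. Leaving out any of the 4 arrays also lowers precision, and its part in the lost calls was not tested. The list held 6 called genes with all arrays, 0 without BN array 1, 0 without F344 array 1, 5 without BN array 2 and 6 without F344 array 2. With trended robust variance it held 2, and with all 58 arrays in the fit 3. The differences themselves stayed positive, from 2.05 to 3.40 for Igfbp1 and from 1.34 to 1.70 for Tat when one of the 4 arrays was left out. The macrophage markers were also higher on BN array 1 than on BN array 2, with mean log2 levels of 9.59 and 8.84, and their part in these calls was not tested.

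Among 22 immediate early genes, transcription factors and signalling genes induced within minutes of a stimulus, 3 were higher and 0 lower. Over all genes, 2.21% were called higher and 1.65% lower. Egr1 had 9.66 and 8.93 in BN, against 6.73 and 6.40 in F344 (2.73 ± 0.35, adjusted p = 0.00102), and kept the call without any 1 array. Dusp1, a phosphatase of MAP kinases, had 11.23 and 10.82 in BN, against 8.57 and 9.57 in F344 (1.95, adjusted p = 0.0453), and Klf4 differed by 1.02 (adjusted p = 0.0150). Dusp1 lost its call without either BN array, F344 array 1 or an M520 array, and Klf4 without either BN array or F344 array 2 (adjusted p up to 0.289 and 0.121). Of 21 heat shock and ER stress genes, Sdf2l1 (0.62) and Hsp90b1 (0.61) were called higher, 19 of 21 differences were positive, and the median was 0.353. Neither was called without BN array 1, BN array 2 or F344 array 1.

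In the growth hormone and IGF axis, 4 of 18 genes were higher and 0 lower, against 2.21% and 1.65% of all genes. All 4 encode IGF-binding proteins or a related protein. Beside Igfbp1, Igfbp2 had 9.61 and 10.22 in BN, against 6.84 and 7.82 in F344 (2.58 ± 0.55, adjusted p = 0.0251), and Igfbp3, the main carrier of IGF1 in blood, had a mean of 10.09 in BN, against 9.12 in F344 (0.97 ± 0.17, adjusted p = 0.00789). Igfbp7 differed by 0.81 (adjusted p = 0.0334). None of the 4 was called without BN array 1 or without F344 array 1. Bcl6, a repressor in this axis, was discordant in both strains, with 10.60 and 6.69 in BN, against 6.65 and 9.04 in F344, and was named after its values were seen.

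**Figure D4:**
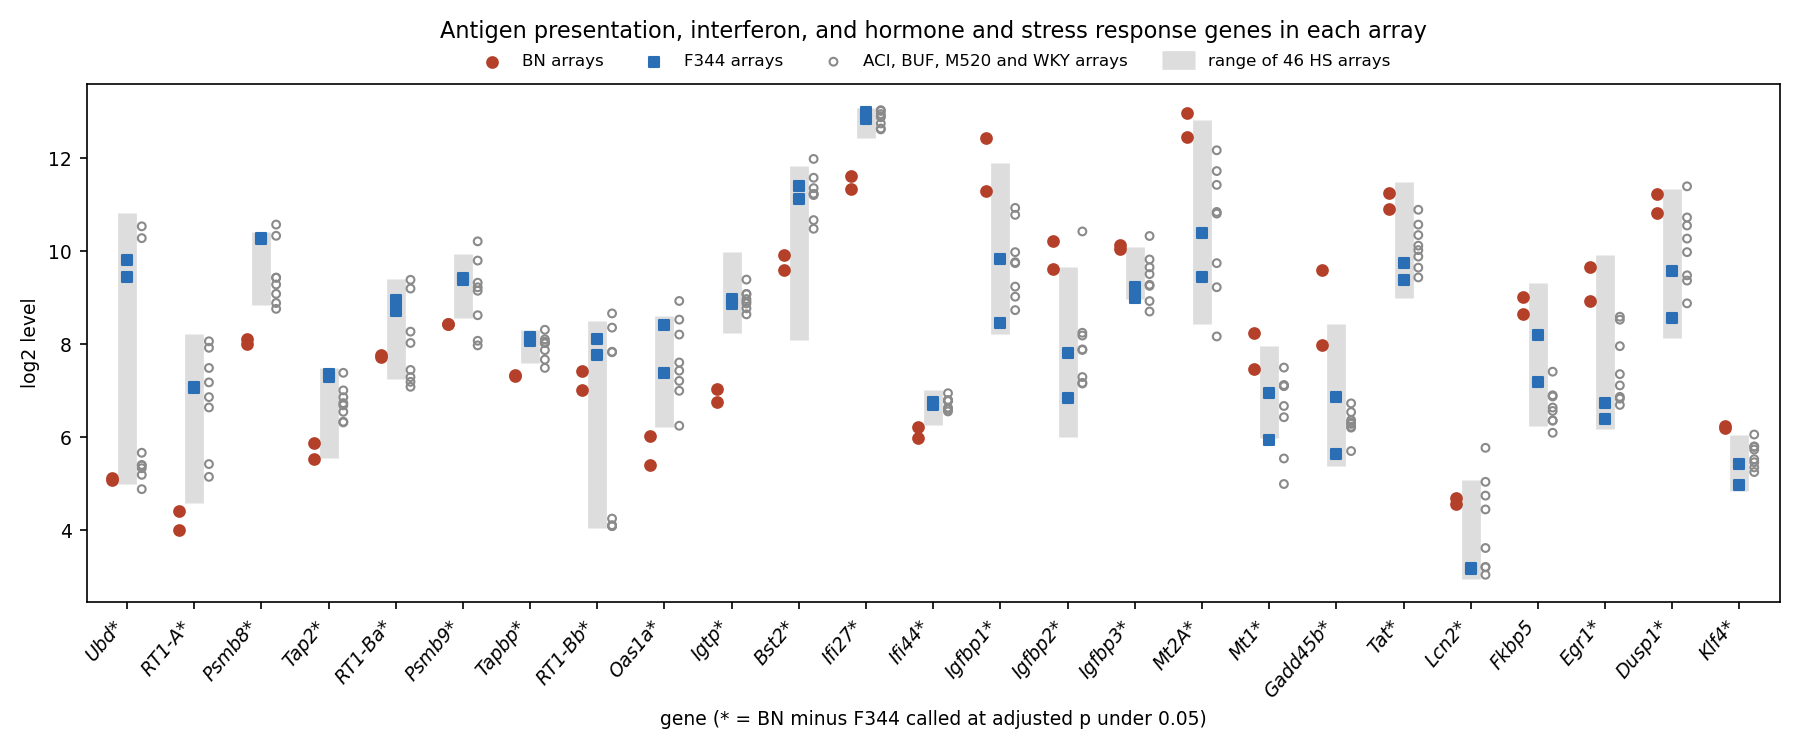
Log2 levels of antigen presentation and interferon genes (left) and hormone and stress response genes (right) on each array (BN red circles, F344 blue squares, other 8 inbred arrays open circles, grey bar the range of 46 HS arrays); an asterisk marks a called difference. BN lies below F344 for the 13 immune genes from Ubd to Ifi44 and above it for the 12 genes from Igfbp1 to Klf4, of which Fkbp5 was not called. The others are called members of their lists, so their shared direction follows from that choice. Of all measured members, 4 of 26 antigen presentation and 5 of 29 interferon genes had positive differences. Negative ones were 4 of 17 glucocorticoid, 5 of 22 immediate early and 8 of 18 growth hormone and IGF genes.

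In amino acid breakdown and the urea cycle, 3 of 30 genes were higher and 0 lower, against 2.21% and 1.65% of all genes. The list median was 0.0572. Beside Tat, Oat (ornithine aminotransferase) had 12.61 and 12.75 in BN, against 11.54 and 11.51 in F344 (1.16, adjusted p = 0.0367), and Asl (argininosuccinate lyase) had 12.10 and 12.30 in BN, against 10.86 and 11.32 in F344 (1.11, adjusted p = 0.0490). Both BN arrays were above the HS maximum for Oat (11.91) and Asl (11.68). The Oat and Asl calls were each lost without any of the 4 arrays. Of 19 acute phase and serum proteins, Lcn2 and A2m (1.37) were called higher, and 0 were without BN array 2, F344 array 1 or F344 array 2.

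The clock genes did not move together. Of 17, Nr1d2 (REV-ERB beta) was higher and Npas2 and Nfil3 were lower in BN. Nr1d2 had 9.11 and 9.26 in BN, against 7.83 and 8.23 in F344 (1.15, adjusted p = 0.0129). Npas2, an activator of the core loop, had 7.40 and 6.75 in BN, against 8.65 and 7.96 in F344 (-1.23, adjusted p = 0.0129), and Nfil3, a repressor of the output arm, had 8.50 and 8.05, against 9.31 and 9.36 (-1.06, adjusted p = 0.0103). Nr1d1 (REV-ERB alpha) had 7.44 and 8.14 in BN, against 7.19 and 8.42 in F344, a difference of -0.02 with an interval from -0.81 to 0.78. Dbp, an output gene, had 6.09 and 7.96 in BN, against 5.16 and 5.93 in F344, and was not called (adjusted p = 0.251). The list held 0 called genes without BN array 2 or without F344 array 1.

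All 13 Kupffer cell and macrophage markers had positive differences, with a median of 0.458, and 2 were called, Clec4f (0.90, adjusted p = 0.0325) and Cd163 (0.88, adjusted p = 0.0485). The mean log2 level over the list was 9.59 and 8.84 on the BN arrays and 8.60 and 8.72 on the F344 arrays, and BN array 1 exceeded BN array 2 for all 13. Adgre1, a macrophage surface receptor, had 9.43 and 6.66 in BN, against 6.39 and 6.75 in F344. Without BN array 2 the list held 5 called markers, and without BN array 1 or F344 array 1 it held 0.

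All 12 endothelial markers had positive differences too, with a median of 0.51, and Emcn (1.10, adjusted p = 0.00230) and Lyve1 (0.84, adjusted p = 0.0201) were called, of which Lyve1 was not without either BN array or F344 array 1 (adjusted p up to 0.174). Their mean level was 8.24 and 8.10 in BN, against 7.46 and 7.80 in F344. Of 20 stellate cell and matrix genes, 19 were positive but only Lox was called, and the mean level was 7.68 and 7.63 in BN, against 6.96 and 7.07 in F344. Col3a1, a fibrillar collagen chain, was not called, with 10.73 and 10.02 in BN, against 9.51 and 9.20 in F344.

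No marker of the Kupffer, endothelial or stellate lists was below the median level of every array. Epcam was the 1 called of 6 bile duct markers (1.32, adjusted p = 0.0189; up to 0.130 when one of the 4 arrays was left out), and 0 of 8 neutrophil and monocyte and 0 of 4 red cell markers were called. The part of these markers in the higher calls of BN was not tested. The histocompatibility and interferon genes ran opposite to them, with negative medians where the macrophage and endothelial lists had positive ones.

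Oxidative phosphorylation and ribosomal protein genes held no called member. Of 37 subunits of the respiratory chain and ATP synthase, 31 had negative differences with a median of -0.139, and F344 array 1 was higher than F344 array 2 for 30. All 17 cytosolic ribosomal protein genes had positive differences with a median of 0.22. Both BN arrays lay below both F344 arrays for 18 of the 37 subunits (22.6% of all genes) and above both for 12 of the 17 ribosomal genes (3824 of all 14217 genes).

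**Figure D5:**
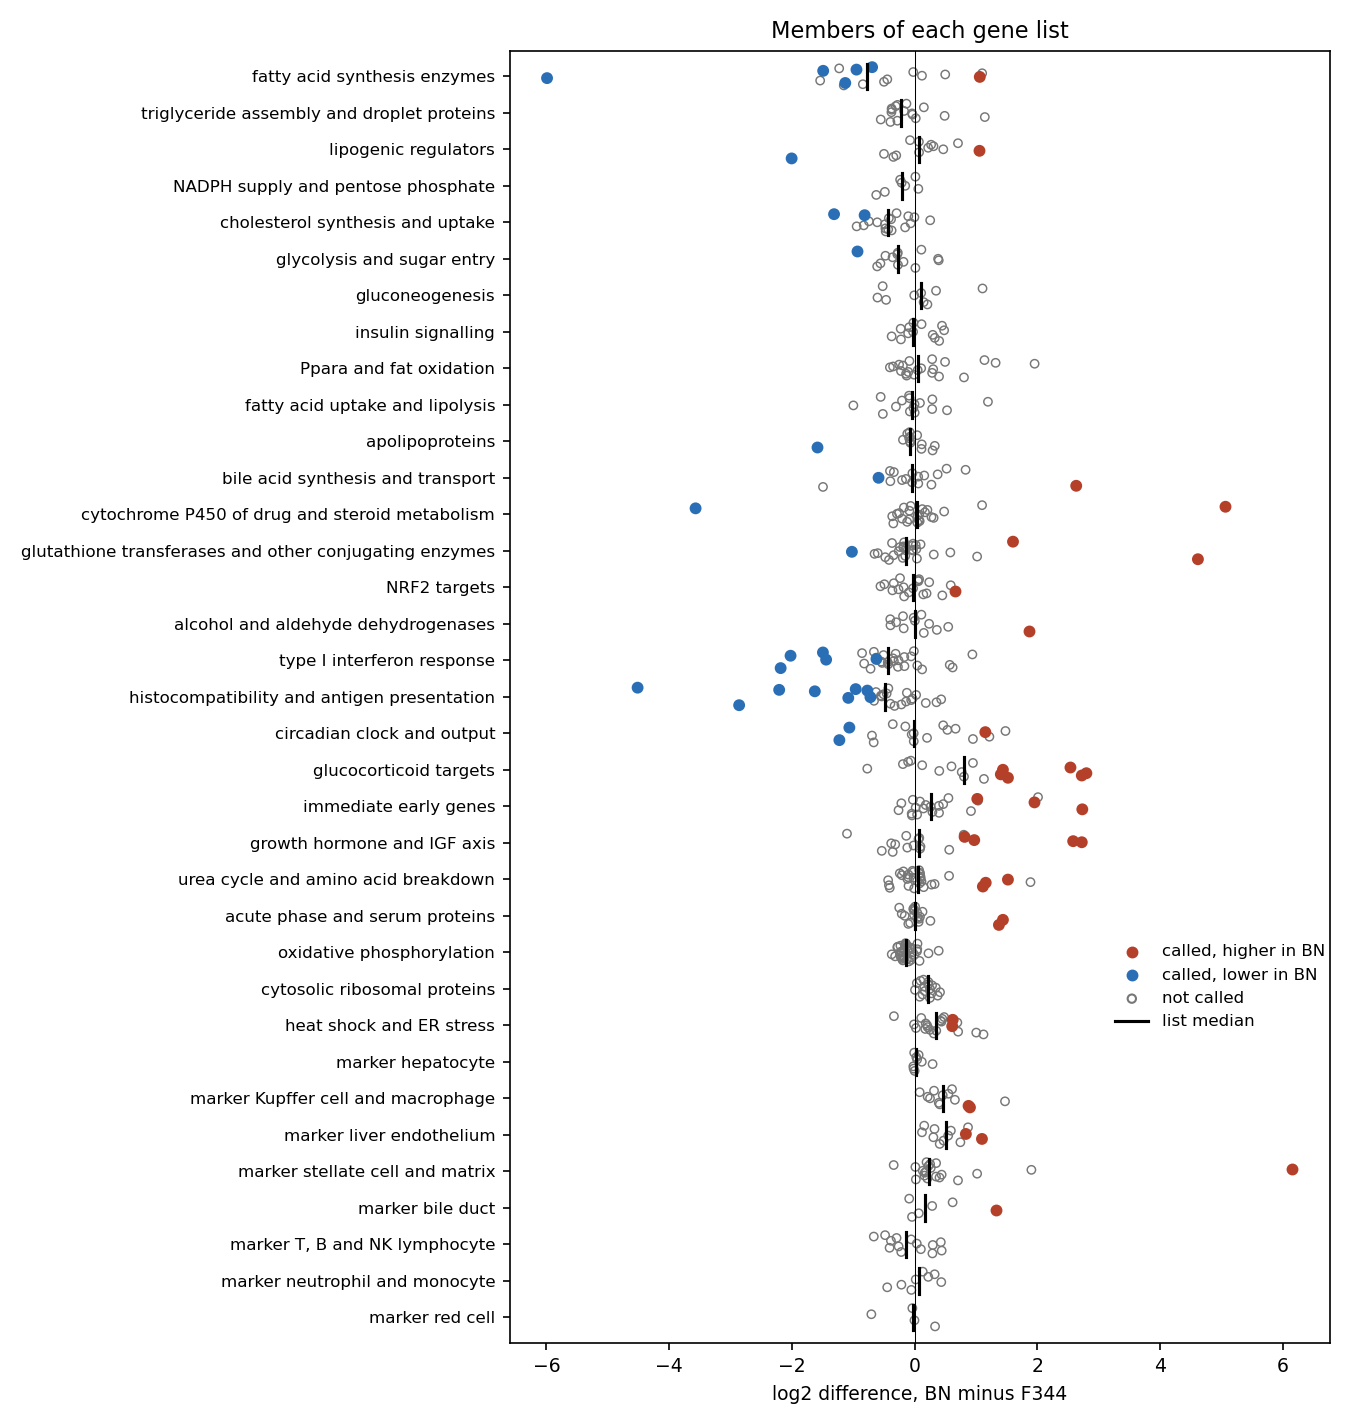
Log2 differences, BN minus F344, for every measured member of each gene list, with called genes filled (red higher, blue lower in BN), other members open and a black bar at the list median. The antigen presentation and interferon lists hold called genes on the lower side alone, and the glucocorticoid and immediate early lists on the higher side alone.

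Against the mean of ACI, BUF, M520 and WKY, 755 genes (5.31%) were called for BN and 241 (1.7%) for F344, contrasts that share the 8 arrays on the other side. Of the 71 named genes called between BN and F344, 41 were also called for BN and not for F344 against those strains, among them Cyp17a1, Echdc2, Srebf1, RT1-A and Igtp. A further 8 were called for F344 and not for BN, among them Cyp4v3, Scd2, Pparg and A2m. Another 14, Lox, Scd, Ubd, Psmb8 and Dio1 included, were called on both sides, and 8 on neither. The direct contrast is the test of the difference between the sides.

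Against the outbred HS livers, 100 of the 548 called genes had both BN arrays above all 46 HS arrays and 72 had both below, where 1.84% and 1.21% of all genes did. For F344 the counts were 25 above and 22 below, where 0.506% and 0.732% of all genes did. The called genes were picked on these same BN and F344 arrays, so a larger share than over all genes follows partly from that choice. For 170 called genes all 4 arrays lay within the HS range. Echdc2 and Cyp4v3 lay far outside that range, with a BN mean of 3.74 for Echdc2, against 9.97 on the lowest HS array, and a F344 mean of 5.33 for Cyp4v3, against 10.86 on the lowest HS array.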

How the data were processed

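Liver RNA of 58 rats was measured on Affymetrix rat arrays after two-cycle amplification, per the labels' protocols. In the table deposited by the authors, 31042 probe sets carry values on a log2 scale. Partek, with no version, is the software named per the submitters' processing notes, while the background correction and the normalisation are not given in sources used here. No scan date or batch was named, and precision is set by how many arrays there are.

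Gene names came from the platform annotation, with 20826 carrying 1 symbol, 436 several and 9780 none, and 14167 of 14217 genes were found in GRCr8. Each gene was read by its brightest probe set (mean of 58 arrays). The deposited log2 values were fitted in limma 3.58.1 (lmFit, then eBayes; R 4.3.3), with 6 strain means over 12 inbred arrays without a filter, and Benjamini-Hochberg adjustment ran over 31042 probe sets. Gene lists are described by counts and medians. Named genes are all members of the 3 lipogenic lists, the 12 highest and the 12 lowest called genes, up to 4 called genes per direction of every other list and 16 chosen metabolic and clock genes where measured. Other list members were named after their values were seen. The members and lists were chosen with earlier results of these data known. Promoter windows came from RefSeq on GRCr8.

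Alternatives changed the arrays in the fit, the filter, the probe sets per gene, the scaling, the variance model, the replicate block and the threshold, and left out each inbred array in turn.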

Additional observations from a re-analysis of the deposited data

How the results depend on the processing

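Of the 71 named genes called between BN and F344, 0 changed sign under any alternative, and 11 lost the call with the 4 BN and F344 arrays alone, 34 with all 58 arrays in the fit, 43 with no variance moderation and 45 under a test against a 2-fold threshold. Between 19 and 36 lost it when 1 of the 4 arrays was left out, 8 with trended robust moderation, 2 with quantile normalisation and 0 with array weights. The called probe sets between BN and F344 (1023) numbered 675 with all 58 arrays, 643 with 1 probe set per gene, 386 with no variance moderation and 90 against a 2-fold threshold, and 454 to 1227 when 1 inbred array was left out. For BN against ACI, BUF, M520 and WKY (1357) the same settings gave 792, 854, 529 and 70, and leaving out 1 array 483 to 1557. For F344 against those strains (474) they gave 123, 259, 113 and 40, and leaving out 1 array 158 to 608. The called genes (548) numbered 216 with no variance moderation, 38 against a 2-fold threshold and 241 to 667 with 1 array left out. With 1 probe set per gene fewer features were tested, and with 1 array of a strain left out the lone array is assumed to vary like the others. The other causes were not tested. The 4 arrays alone give no value for the contrasts with the other strains. Quantile normalisation and centring moved the median difference by less than 0.01. The array weights came out equal for the 2 arrays of each strain, so that setting could not mark 1 array of a pair as less reliable. With all 58 arrays in the fit, 2 rather than 5 fatty acid synthesis genes and 4 rather than 8 antigen presentation genes were called lower, and 2 rather than 4 growth hormone and IGF genes higher. No label ties arrays of the same replicate number across strains. After removing strain means, same-numbered arrays correlated at -0.146 between BN and F344, and at up to 0.421 (BUF and F344) over the 15 pairs of strains. What the BUF and F344 arrays share was not tested. With the replicate block 1073 probe sets were called between BN and F344, and 3 of the 71 named genes lost the call.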
